A study of Mus musculus with 18 samples.

Results

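Open chromatin listed under G9a inhibition was compared between CD24low and CD24high epithelial cells of the adult mouse lung. ATAC-seq, in which a transposase cuts accessible DNA, had been run on 10000 cells per library, and the nucleosome-free peak lists of 4 of the 18 samples of the series were used: replicates 2 and 3 of CD24low and replicates 2 and 3 of CD24high, all from mice given the G9a inhibitor (G9ai). All were C57BL/6 animals of 6 to 12 weeks. The sort kept Epcam+ Sca-1+ cells without CD31 or CD45, with a low CD24 level in one population and a high level in the other. The design had 3 mice in the G9ai arm and 3 in the vehicle arm, and 3 populations were sorted from each, the other being CD24neg, Epcam+ Sca-1+ cells without CD24. Lists of CD24neg G9ai replicates 2 and 3, CD24low vehicle replicates 2 and 3, CD24high vehicle replicate 3 and CD24neg vehicle replicate 3 were used here to look up overlaps. The sources used here give no dose, route or name for the inhibitor.

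Peaks that overlapped by at least 1 bp over the 4 lists were merged into 9884 regions. A region was CD24low-only when both CD24low lists and neither CD24high list held a peak in it (6865 regions, 69.5% of all), CD24high-only in the reverse case (2453 regions, 24.8%), and shared when all 4 lists held one (327 regions, 3.31%). The remaining 239 regions held peaks of 1 list alone, 131 and 81 from the CD24low lists and 11 and 16 from the CD24high lists. Shared regions took 4.53% and 4.56% of the CD24low peaks and 11.7% and 11.7% of the CD24high peaks. Peak numbers in the files run past the number of peaks listed, so the lists are subsets of the called peaks, and a region absent from a list may still be open. Of the G9ai peaks, 0.210% of CD24low and 3.51% of CD24high lay in a vehicle list of their own population, and the lists were taken as peaks selected against vehicle. On that reading a CD24low-only region is one listed under G9ai and not under vehicle in CD24low and not so listed in CD24high, rather than one open in CD24low alone, and the length of a list counts such differences and not open sites. Between replicates, 98.2% and 98.8% of CD24low peaks and 99.6% and 99.4% of CD24high peaks overlapped a peak of the other list, although only 13 and 3 peaks had the same coordinates. No label or file header describes the selection, and whether only peaks found in both replicates were listed was not tested. If the lists were so chosen, the replicates are not independent in which regions they hold, and their spread understates the difference between mice.

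G9a, encoded by Ehmt2, methylates histone H3 at lysine 9, a mark of silent chromatin, and inhibitors of it lower that mark. CD24 is a surface glycoprotein whose level differs among airway epithelial cells, and multiciliated cells are known for a high level. Airway epithelium holds secretory club and goblet cells, multiciliated cells and basal cells, while the alveoli hold flat type 1 cells for gas exchange and cuboidal type 2 cells that make surfactant.

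The promoters on which several of the results below turn are shown first, as the 250 bases before an annotated transcription start in the RefSeq table of GRCm38.p6 (the build mm10). Letters run 5′ to 3′ along the gene, and capitals mark the bases that lay inside a merged region. The first 4 carried a CD24low-only region: Hey2, a Notch target, 2 club cell genes and the axonemal dynein gene Dnah1.
Hey2 (chr10:30842784-30843033, minus strand): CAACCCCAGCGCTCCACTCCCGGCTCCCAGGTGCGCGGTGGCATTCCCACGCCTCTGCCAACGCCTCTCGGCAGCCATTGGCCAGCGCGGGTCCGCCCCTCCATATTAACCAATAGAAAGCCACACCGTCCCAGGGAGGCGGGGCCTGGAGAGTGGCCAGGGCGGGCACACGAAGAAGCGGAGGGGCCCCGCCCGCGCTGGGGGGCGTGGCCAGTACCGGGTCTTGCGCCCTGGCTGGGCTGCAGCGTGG
Scgb3a1 (chr11:49663345-49663594, plus strand): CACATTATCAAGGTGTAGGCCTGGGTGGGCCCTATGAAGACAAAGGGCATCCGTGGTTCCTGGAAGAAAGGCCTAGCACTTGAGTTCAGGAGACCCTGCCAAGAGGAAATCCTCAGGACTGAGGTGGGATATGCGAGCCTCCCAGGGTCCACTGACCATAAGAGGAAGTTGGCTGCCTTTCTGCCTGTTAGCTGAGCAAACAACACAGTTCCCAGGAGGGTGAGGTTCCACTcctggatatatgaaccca
Cyp2f2 (chr7:27119705-27119954, plus strand): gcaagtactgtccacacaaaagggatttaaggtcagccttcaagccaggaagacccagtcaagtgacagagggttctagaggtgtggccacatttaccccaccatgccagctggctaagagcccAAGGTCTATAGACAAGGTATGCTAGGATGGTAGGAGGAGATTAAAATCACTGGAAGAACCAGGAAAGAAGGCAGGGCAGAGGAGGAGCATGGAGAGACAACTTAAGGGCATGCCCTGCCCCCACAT
Dnah1 (chr14:31323897-31324146, minus strand): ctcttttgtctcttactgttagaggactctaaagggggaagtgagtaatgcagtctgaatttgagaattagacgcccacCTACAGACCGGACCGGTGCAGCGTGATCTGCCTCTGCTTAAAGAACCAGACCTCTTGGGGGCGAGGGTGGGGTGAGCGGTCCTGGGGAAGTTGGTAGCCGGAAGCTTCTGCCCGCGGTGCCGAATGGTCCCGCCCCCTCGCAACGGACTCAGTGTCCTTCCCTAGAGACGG

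The next 3 carried a CD24high-only region: the type 2 cell genes Cxcl15 and Slc34a2, and B2m, the light chain of MHC class I.
Cxcl15 (chr5:90794284-90794533, plus strand): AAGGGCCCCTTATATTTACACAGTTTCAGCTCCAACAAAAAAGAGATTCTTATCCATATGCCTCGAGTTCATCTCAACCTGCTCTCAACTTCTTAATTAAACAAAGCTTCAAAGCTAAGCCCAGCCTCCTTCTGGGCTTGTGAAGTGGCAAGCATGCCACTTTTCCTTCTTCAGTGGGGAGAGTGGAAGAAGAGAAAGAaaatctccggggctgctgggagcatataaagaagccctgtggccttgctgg
Slc34a2 (chr5:53049103-53049352, plus strand): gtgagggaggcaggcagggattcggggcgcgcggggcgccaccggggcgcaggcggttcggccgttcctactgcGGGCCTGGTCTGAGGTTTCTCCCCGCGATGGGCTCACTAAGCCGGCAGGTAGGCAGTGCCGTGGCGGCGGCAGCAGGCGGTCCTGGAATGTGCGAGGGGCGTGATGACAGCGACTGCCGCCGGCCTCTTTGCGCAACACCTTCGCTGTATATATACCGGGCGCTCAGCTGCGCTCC
B2m (chr2:122147437-122147686, plus strand): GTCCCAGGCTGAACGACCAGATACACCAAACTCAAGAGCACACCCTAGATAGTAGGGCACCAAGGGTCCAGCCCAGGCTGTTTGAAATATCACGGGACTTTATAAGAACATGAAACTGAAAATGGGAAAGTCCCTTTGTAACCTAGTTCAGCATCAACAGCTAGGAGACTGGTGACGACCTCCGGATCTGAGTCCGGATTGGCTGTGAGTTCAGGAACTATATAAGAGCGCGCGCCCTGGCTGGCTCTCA

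The last pair carried a region in all 4 lists: Spred2, an inhibitor of Ras signalling, and Cbx5, which encodes a protein that binds methylated lysine 9 of histone H3. The Cbx5 region also lay in or within 1000 bp of Hnrnpa1. The CD24neg vehicle list held a peak in both regions, and the CD24high vehicle list held one in that of Spred2.
Spred2 (chr11:19924192-19924441, plus strand): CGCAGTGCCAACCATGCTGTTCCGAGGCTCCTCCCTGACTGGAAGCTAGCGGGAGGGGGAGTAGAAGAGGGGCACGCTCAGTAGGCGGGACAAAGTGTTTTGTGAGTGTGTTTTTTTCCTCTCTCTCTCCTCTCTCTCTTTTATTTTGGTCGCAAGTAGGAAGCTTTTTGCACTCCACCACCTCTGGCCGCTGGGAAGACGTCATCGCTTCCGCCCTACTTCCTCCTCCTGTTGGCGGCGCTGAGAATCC
Cbx5 (chr15:103239853-103240102, minus strand): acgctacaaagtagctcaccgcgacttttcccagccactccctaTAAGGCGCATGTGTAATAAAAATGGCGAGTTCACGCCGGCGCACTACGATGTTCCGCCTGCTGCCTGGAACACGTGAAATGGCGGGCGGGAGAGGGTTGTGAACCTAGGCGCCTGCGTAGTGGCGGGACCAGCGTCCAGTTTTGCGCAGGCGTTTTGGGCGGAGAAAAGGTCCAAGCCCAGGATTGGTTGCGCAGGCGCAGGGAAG

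Mature microRNAs of 2 hairpins that a single CD24low-only region overlapped are given with their seed, bases 2 to 8, in capitals (both 3p forms share one).
miR-132-5p: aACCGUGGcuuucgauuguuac
miR-132-3p: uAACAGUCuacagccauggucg
miR-212-5p: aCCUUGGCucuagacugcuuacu
miR-212-3p: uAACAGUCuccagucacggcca

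The CD24low lists were longer and reached further from genes. They held 7379 and 7361 distinct peaks, against 2798 and 2817 in the CD24high lists, a ratio of means of 2.63 (log2 1.39). An end of a protein-coding gene lay within 1000 bp for 16.9% ± 0.0571 of CD24low peaks and for 22.8% ± 0.0922 of CD24high peaks (SD, n = 2 each), a difference of -5.92 percentage points. Inside gene spans lay 59.5% ± 0.151 of CD24low peaks and 65.6% ± 0.114 of CD24high peaks. In each of these measures the values of the populations did not overlap. The two-sided exact permutation test gave p = 0.333 for each, adjusted 0.375 over 9 comparisons of lists, and with 2 against 2 libraries no p can fall below 0.333, so no such comparison can pass 0.05.

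Width did not separate the populations. The median peak was 183 and 140 bp wide in the CD24low lists and 154 and 152 bp in the CD24high lists (exact permutation p = 1). The 2 CD24low values lay on either side of both CD24high values, and without CD24low replicate 2 the difference was -13.0 bp in place of 8.5 bp. The covered length was 1503883 and 1172908 bp in CD24low and 493594 and 508656 bp in CD24high. The listed peaks were 8.93% and 10.5% of the highest peak number in the CD24low files and 3.03% and 3.69% in the CD24high files. Read depth is unknown, as the files hold no counts, and the part of depth or of the authors' selection in the list lengths was not tested. Sorted cells are a bulk sample, so more cells of a type and more open chromatin per cell cannot be told apart.

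**Figure D1:**
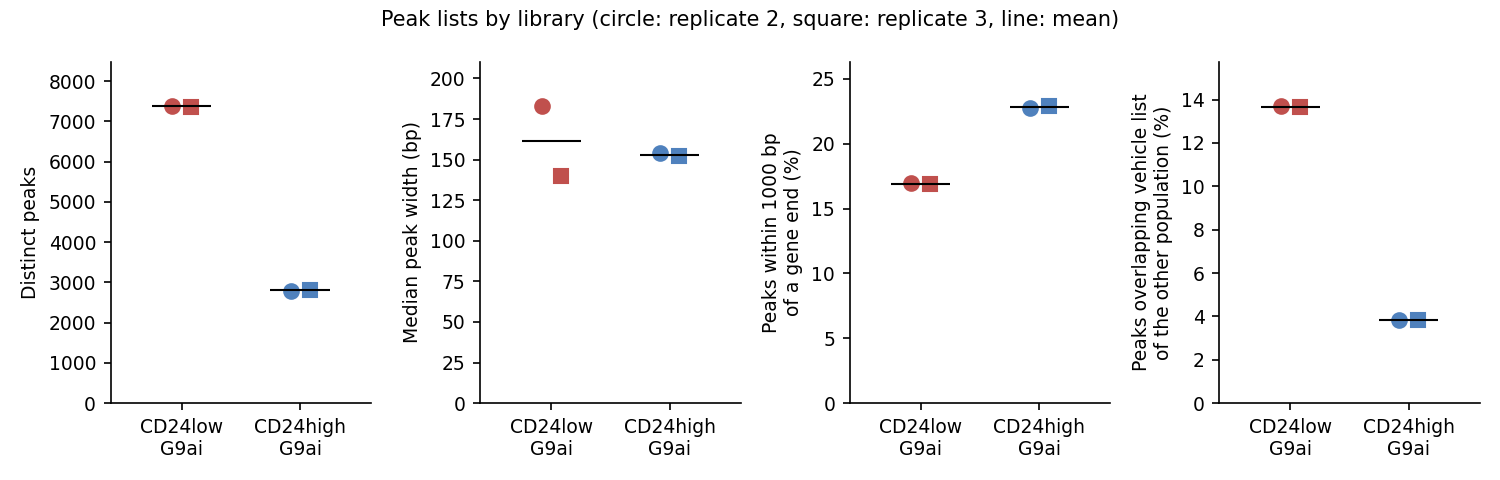
Each point is one G9ai library (CD24low left, CD24high right; circle replicate 2, square replicate 3) and the line is the mean of 2; panels give distinct peaks, median width in bp, and the shares of peaks near a gene end and in the vehicle list of the other population. The populations separate in every panel except width, where the CD24low libraries lie at 183 and 140 bp around the CD24high libraries at 154 and 152 bp.

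By class, the median distance to the nearest gene end was 14048 bp for CD24low-only regions and 8908 bp for CD24high-only regions, with 11563 bp for shared ones. More than 50000 bp from any gene end lay 23.1% of CD24low-only and 15.7% of CD24high-only regions. Within 250 bp of an annotated transcription start lay the centres of 512 of 6636 CD24low-only regions (7.72%) and of 243 of 2375 CD24high-only regions (10.2%), counted on the chromosomes of the promoter table. Centres in the 1000 bp downstream of a start were more frequent than in the 1000 bp upstream in both, with 563 against 507 CD24low-only and 284 against 215 CD24high-only regions. The plot of distances shows that the classes part within about 1000 bp downstream of starts and just upstream of them, and run together further out. By chromosome, CD24low-only regions made up between 69.3% (chromosome 8) and 79.9% (chromosome X) of the regions of the 2 population classes.

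**Figure D2:**
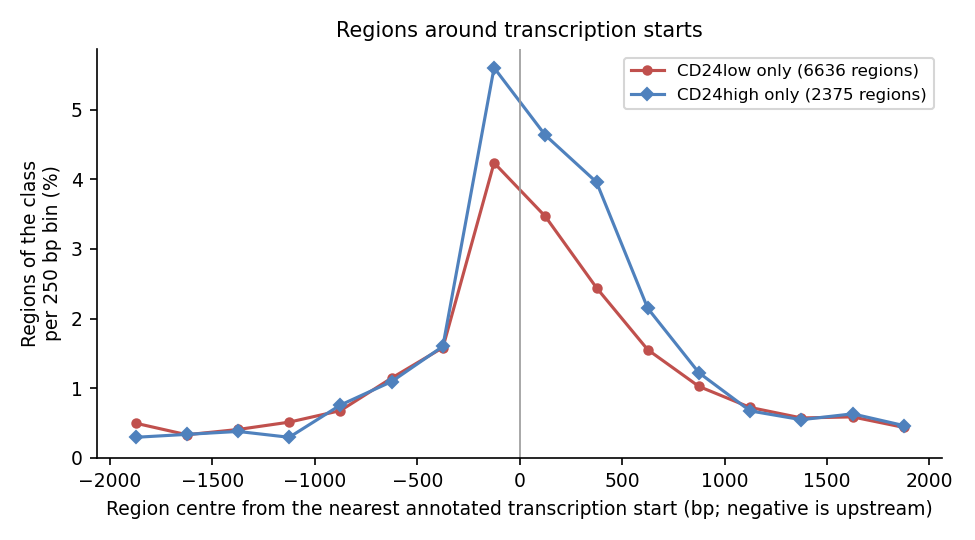
Share of the regions of a class in each 250 bp bin by the distance of the region centre from the nearest annotated transcription start (bp, negative upstream), for 6636 CD24low-only and 2375 CD24high-only regions. The CD24high-only curve lies above the CD24low-only curve around the start, and within 250 bp of it lie 7.72% of CD24low-only and 10.2% of CD24high-only regions.

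Of 21883 protein-coding genes, 3375 (15.4%) had a CD24low-only region in the gene or within 1000 bp of it, 1629 (7.44%) a CD24high-only region and 237 (1.08%) a shared one. These shares are the background for every list count below. Genes with a region were longer than others: their median length was 47638 bp for CD24low-only and 49028 bp for CD24high-only regions, against 17170 bp over all genes. In 586 genes both population classes were present, and their nearest centres lay a median of 11377 bp apart. The gene lists were chosen with results of these data known, so their counts are descriptions and carry no test. Without any one of the 4 libraries, no list count moved by more than 1.5 times, which the near-complete overlap of the replicate lists fixes, so it is no sign of stability.

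Airway secretory genes carried many CD24low-only regions. Of 24 club cell genes, 11 had a CD24low-only region and 3 a CD24high-only one; the median gene of the list is 10816 bp long, shorter than the median of all genes. Of 18 mucin and goblet cell genes, 8 had a CD24low-only region and none a CD24high-only one. Per megabase of gene and flank the club list held 19.5 CD24low-only regions, where all genes held 4.23, and 5.19 CD24high-only regions, where all genes held 1.73. Linked through gene ends alone, 5 club genes and 2 goblet genes had a CD24low-only region and none in either list a CD24high-only one, with 1251 (5.72%) and 615 (2.81%) of all genes.

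Scgb1a1, the main secretory protein of club cells, had a region at chr19:9087796-9088263 across one end of the gene, at percentiles 98.18 and 77.18 of the scores of the CD24low lists. Percentiles are ranks of the authors' peak score within a list, whose scale is not given, with 100 the highest. Scgb3a1 and Scgb3a2, further secretoglobins, had regions at percentiles 80.59 and 69.34 and at 89.73 and 76.13. The Scgb3a1 region ended 19 bp short of the gene and covered 232 of the 250 bases printed above. Cyp2f2, a cytochrome P450 of club cells, had a region over its start at percentiles 47.79 and 32.08 and a second inside the gene. The regions of Scgb1a1 and of the Cyp2f2 start also held a peak of the CD24high vehicle list, and those of Scgb3a1 and Scgb3a2 did not.

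Among the other club cell genes, Pigr, the carrier of immunoglobulin A, had a region at percentiles 98.22 and 41.48. Kcnk2, a potassium channel gene, held 3 CD24low-only regions, the highest at percentiles 96.12 and 90.1, and 1 CD24high-only region at 66.23 and 48.42. Por, which supplies electrons to cytochromes P450, held 2 regions of each class. Aldh1a1, a retinaldehyde dehydrogenase gene, held 1 of each. No club cell gene had a CD24high-only region alone.

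Spdef, an ETS factor that drives goblet cell formation, came after Hey2 and Ifnar2, described below, in the ranks of list genes with a CD24low-only region. Its region at chr17:27716805-27717209, inside the gene, reached percentiles 98.72 and 98.36, and a second one in the gene 18.15 and 20.92. Foxa3, a further goblet cell factor, had a region 12 bp outside its gene at percentiles 46.66 and 55.09. The other 6 were Xbp1 and Creb3l1, factors of the secretory pathway, Galnt12 and Fut2, which build sugar chains, and Ltf and Bpifb1, secreted defence proteins. The gel-forming mucin genes Muc5ac and Muc5b had none of either class.

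Genes of motile cilia were counted in 2 lists, one of the axoneme and one of regulators. Of 40 axoneme genes, 13 had a CD24low-only region and 4 a CD24high-only one. The list is of long genes (median 76616.5 bp), and per megabase it held 3.78 CD24low-only and 1.13 CD24high-only regions, a little under the 4.23 and 1.73 of all genes. Of 33 axoneme genes with a promoter window of 300 bp, 6 held a CD24low-only region in it (Ccdc39, Cfap44, Cfap52, Dnah1, Dnaic2 and Dnali1) and none a CD24high-only region, where the background over 17491 genes was 2.57% and 1.25%, and 0.194% for shared regions. The Dnah1 region lay at percentiles 57.07 and 89.19, that of Dnaic2 at 27.92 and 89.19, and that of Cfap52 near the bottom of both lists at 0.962 and 3.68. With the higher-scoring 50% of peaks alone, 2 axoneme genes had a CD24low-only and 2 a CD24high-only region, or 2 of 40 each, where 5.71% and 2.54% of all genes had one.

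Of 19 regulators of multiciliated cells, 5 had a CD24low-only region and 5 a CD24high-only one, 26.3% each. Of all genes, 15.4% and 7.44% had one. Per megabase the list held 5.26 CD24low-only and 4.51 CD24high-only regions, where all genes held 4.23 and 1.73. CD24low-only regions lay at Foxj1, the master factor of motile cilia (percentiles 53.91 and 32.08), at Mcidas and Gmnc, which start the programme, and at Myb and Rfx4. CD24high-only regions lay at Trp73, a p53 family factor of multiciliated cells (2 regions, the upper at percentiles 61.9 and 80.81), at Rfx3 and Jazf1, and again at Myb and Rfx4. Both CD24neg G9ai lists also held a peak in the Jazf1 region. The Myb regions of the 2 classes were neighbours, 177 bp apart: chr10:21156620-21156892 in CD24low at percentiles 18.15 and 69.34, and chr10:21157070-21157207 in CD24high at 98.36 and 65.32. Cdc20b held a shared region. With the higher-scoring 50% of peaks alone, 1 regulator had a CD24low-only region and 3 had a CD24high-only one, with 5.71% and 2.54% of all genes.

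Of 22 type 2 cell genes, 5 had a CD24low-only region and 6 a CD24high-only one, which is 27.3% where 7.44% of all genes had one. At promoters, none of 16 type 2 cell genes held a CD24low-only region and 3 held a CD24high-only one (Cxcl15, Lpcat1 and Slc34a2). Of all 17491 genes with a promoter window, 2.57% and 1.25% held one. Cxcl15, a chemokine of the lung epithelium, had its region at percentiles 67.19 and 66.95, and Slc34a2, a phosphate transporter, at 51.27 and 22.44. Lpcat1, which makes surfactant phospholipid, had a region at 35.79 and 99.17 in the CD24high lists, and both CD24neg G9ai lists held a peak there too. Abca3, the lipid pump of lamellar bodies, held 1 CD24low-only region and 2 CD24high-only regions. Sftpa1 and Sftpd, which encode collectins of surfactant, each had a CD24low-only region, and Sftpc had none. Among higher-scoring peaks alone, no type 2 cell gene had a CD24low-only region and 2 had a CD24high-only one, with 5.71% and 2.54% of all genes.

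Of 23 type 1 cell genes, 8 had a CD24low-only region, 6 a CD24high-only one and 2 a shared one. Hopx had a CD24low-only region at percentiles 15.4 and 13.15, low in both lists, and Rtkn2 one at 91.49 and 73.41. Gprc5a, an orphan receptor gene, had a CD24high-only region at 82.65 and 95.31. Lmo7 held 4 CD24low-only regions, and Limch1, Clic5, Timp3 and Tead1 held both classes. Of 17 basal cell genes, Dst had CD24low-only regions (5 of them) and Aqp3 and Itga6 a CD24high-only region each. The basal cell factor gene Trp63 had none.

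**Figure D3:**
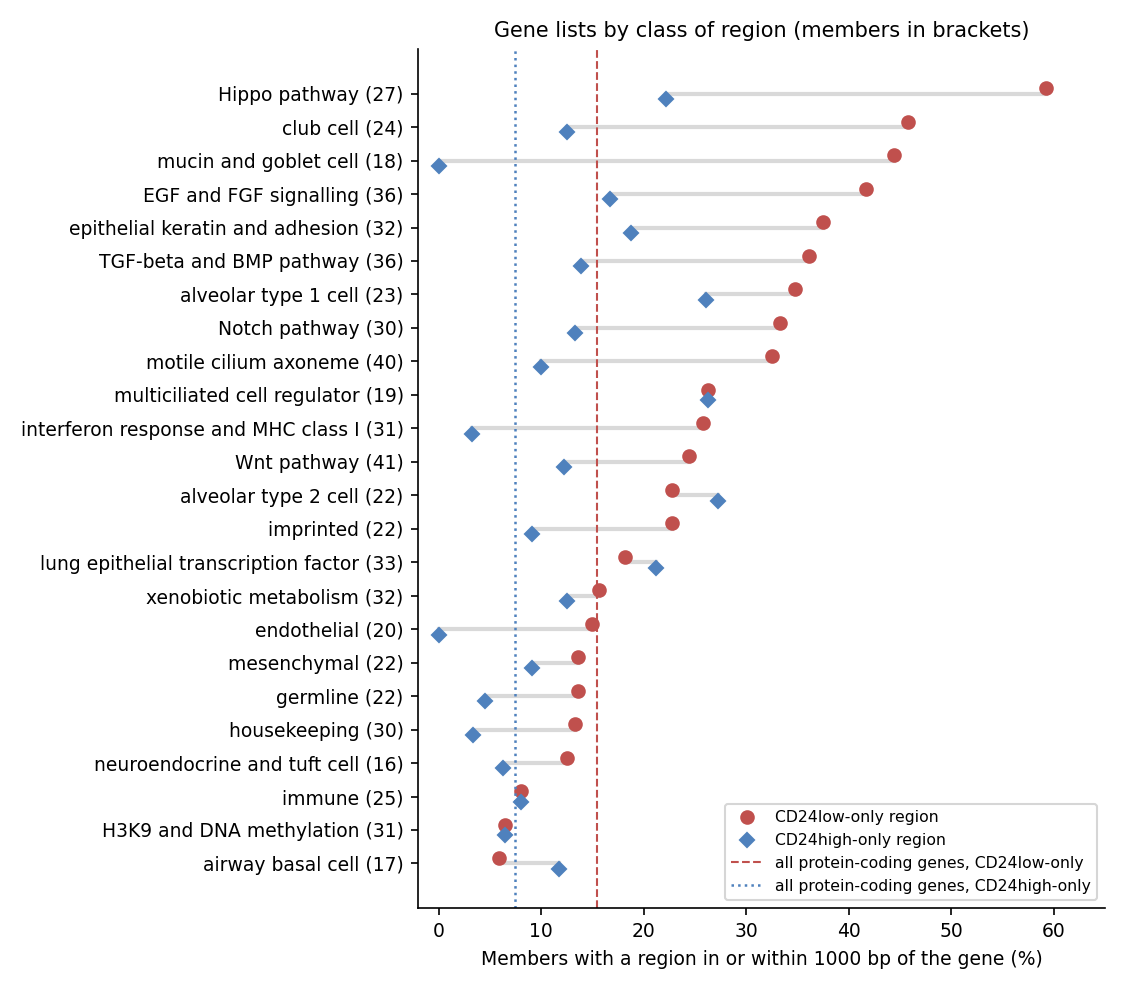
Share of the members of each gene list (number in brackets, lists of 10 or more) with a CD24low-only region (circles) and with a CD24high-only region (diamonds) in or within 1000 bp of the gene; dashed and dotted lines give the shares of all protein-coding genes, 15.4% and 7.44%. Hippo, club and goblet cell lists lie furthest to the right for CD24low-only regions, and type 2 and basal cell lists and lung transcription factors are the lists in which diamonds lie right of circles.

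Lung transcription factor genes had CD24low-only regions in 6 of 33 and CD24high-only regions in 7, with 3 shared. Foxp1, a repressor of the forkhead family, showed all 3: 2 CD24low-only regions, 4 CD24high-only regions and 1 shared. Its CD24low-only region at chr6:99011904-99012261 reached percentiles 97.87 and 96.6, and its CD24high-only region at chr6:99096175-99096596 had 32.09 and 97.5, so replicates of CD24high disagreed on its rank. Runx1 had 3 CD24low-only regions, 1 CD24high-only and 1 shared. Meis1 and Nfib had CD24low-only regions. Klf5 had 2 CD24high-only regions and 1 shared one, Klf4, Gata6 and Ehf had CD24high-only regions, and Nkx2-1 and Sox2 had none of any class.

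The Hippo pathway, in which the kinases of the Mst and Lats families hold back the coactivators Yap1 and Wwtr1 from Tead factors, had the highest share of all lists with 10 or more members. CD24low-only regions lay in 16 of its 27 genes (59.3%) and CD24high-only regions in 6 (22.2%). Its genes are long (median 59543 bp), and per megabase it held 16.5 CD24low-only regions, where all genes held 4.23. CD24low-only regions alone were found at the kinases Stk3 and Lats2 (3 regions each), the coactivators Yap1 and Wwtr1, the factor Tead4 (3 regions), the scaffold Wwc1 (4 regions), and all 3 angiomotin genes Amot, Amotl1 and Amotl2. Wwc2, a relative of Wwc1, held 3 CD24low-only regions, the highest at percentiles 97.87 and 87.22. Both CD24neg G9ai lists also held a peak in that highest region. Wwc2 had a CD24high-only region too, chr8:47989641-47989883 at 90.81 and 83.69. The kinase Stk4 had CD24high-only regions alone, at percentiles 81.7 and 98.03 and at 32.09 and 90.98. Tead3 likewise had a CD24high-only region alone. Nf2 and Tead1 held both classes. Vgll4, a competitor of Yap1 for Tead factors, held 3 CD24low-only regions and a CD24high-only region at percentiles 96.91 and 97.3. Linked through gene ends alone the count was 4 CD24low-only and 1 CD24high-only gene, with 5.72% and 2.81% of all genes.

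Notch genes, whose pathway holds airway cells in the secretory fate over the multiciliated one, had CD24low-only regions in 10 of 30 and CD24high-only regions in 4, all 4 of which also had CD24low-only ones. Hey2 carried the highest ranked CD24low-only region of any list gene, at chr10:30842698-30843438. Its scores were 665 and 408, percentiles 99.98 and 99.87, and it covered all 250 bases printed above. Heyl, of the same family of repressors, had a CD24low-only region across its gene end at percentiles 62.02 and 68.38. The receptors Notch1 and Notch2 held both classes, Notch3 held 3 CD24low-only regions, and Rbpj, the DNA-binding partner of the pathway, held 1. The coactivator gene Maml2 had a CD24low-only region at percentiles 62.79 and 1.67 and the highest ranked CD24high-only region of a list gene, chr9:13442073-13442610 at 99.62 and 95.81.

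Wnt genes had CD24low-only regions in 10 of 41, CD24high-only regions in 5 and shared regions in 3. Of the ligands, Wnt5b (3 regions) and Wnt11 were CD24low-only and Wnt3a was CD24high-only. The receptor genes Lgr4, Lgr6 and the ligase gene Rnf43 were CD24low-only, and Znrf3, the partner of Rnf43, had 2 CD24high-only regions. Ctnnb1, the transcriptional effector, had a CD24low-only region 56 bp inside the gene, over an annotated transcription start, at percentiles 49.5 and 93.57. Wls, which carries Wnt ligands out of the cell, Wif1, which binds them outside it, and Rspo1, which strengthens the signal, held the shared regions.

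TGF-beta and BMP genes had CD24low-only regions in 13 of 36 and CD24high-only regions in 5. The ligands Tgfb1, at percentiles 96.21 and 93.32, Tgfb3, Bmp3 and Bmp6 had CD24low-only regions alone. The receptor gene Tgfbr1 had a CD24high-only region over its start at percentiles 76.91 and 99.77. Smad3, a signal transducer, held 3 CD24low-only regions and 1 CD24high-only region, Smad1 held 2 and Smad4 held 1 CD24low-only region. Ski, a repressor of Smad proteins, had a CD24low-only region at 0.962 and 59.63 and a CD24high-only one at 97.32 and 90.63.

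EGF and FGF genes had CD24low-only regions in 15 of 36, CD24high-only regions in 6 and shared regions in 3. Egfr, the EGF receptor, had a CD24high-only region alone, 407 bp outside the gene, at percentiles 91.03 and 91.89. The growth factor receptor gene Igf1r held 3 CD24low-only regions and 4 CD24high-only ones. CD24low-only regions alone were found at the ligand gene Hbegf, at Erbb3, and at the feedback inhibitors Dusp6, Spred1 and Spry4. Adhesion and keratin genes had CD24low-only regions in 12 of 32 and CD24high-only regions in 6. Tight junction scaffolds Tjp1 and Tjp3 had CD24low-only regions at their promoters, and Krt18, a keratin of simple epithelia, had a CD24high-only region at 95.59 and 91.59 that both CD24neg G9ai lists also held. At Cldn8, a claudin gene, the 2 classes lay 124 bp apart, with chr16:88563078-88563187 CD24low-only and chr16:88563312-88563762 CD24high-only, and the CD24high vehicle list held a peak in each.

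Interferon and MHC class I genes had CD24low-only regions in 8 of 31 and a CD24high-only region in 1. Ifnar2, a subunit of the type I interferon receptor, had a CD24low-only region at percentiles 99.64 and 97.85, second to Hey2 among list genes. The RNA sensor gene Ddx58, Ddx60 and the transcription factor gene Irf9 held CD24low-only regions in their promoter windows. These were 3 of 26 genes, where 2.57% of all genes with a window held one, and the Irf9 region ranked at 23.86 and 0.910. Ifit3, Tap2, H2-D1 and Irf2 were the others. B2m had the CD24high-only region, with scores of 384 and 60 and percentiles of 99.66 and 19.52, so its rank rests on replicate 2. Genes of H3K9 and DNA methylation were few: Atf7ip and Dnmt3a among 31 were CD24low-only, Atf7ip and Dnmt1 were CD24high-only, and Cbx5 was shared. Ehmt2, the target of the inhibitor, had no region of any class.

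Imprinted genes had CD24low-only regions in 5 of 22 and CD24high-only in 2, germline genes in 3 and 1 of 22, xenobiotic genes in 5 and 4 of 32, and housekeeping genes in 4 and 1 of 30. Lists of other cell types were near or under the background in CD24low, other than the short mesothelial list. Endothelial genes had CD24low-only regions in 3 of 20 (Pecam1, Tek and Esam), immune genes 2 of each class in 25, mesenchymal genes 3 and 2 in 22, and neuroendocrine and tuft genes 2 and 1 in 16. Mesothelial genes had CD24low-only regions in 2 of 6 and Cftr was the 1 of 8 ionocyte genes. Pecam1, which encodes the CD31 that the sort excluded, held 4 CD24low-only regions, the highest at percentiles 93.94 and 97.13, and Ptprc, which encodes CD45, held none. Cd24a, Epcam and Ly6a, which encode the CD24, Epcam and Sca-1 used in the sort, held none of either class. The part of other cells in the CD24low-only regions was not tested.

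The highest ranked genes outside the lists were, among CD24low-only regions, Pdcl3, which helps proteins fold, with scores of 518 and 555 across its gene end, Fuca2, a fucosidase gene, Usp53, Rbx1, a subunit of ubiquitin ligases, and Hnrnpf, a splicing factor gene. Among CD24high-only regions they were Fyn, a kinase of the Src family, with scores of 661 and 889 across its gene end, Arhgap24, Kcnn2, Supt4a, an elongation factor gene, and Cyb5r4. All of these lay above percentile 99 in both lists of their class. Rad51b, a DNA repair gene 550979 bp long, held the most CD24low-only regions, 12, with 2 CD24high-only ones. Hmcn2 held no CD24low-only region and 4 CD24high-only regions.

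Shared regions had a median width of 272 bp, but merge the peaks of 4 lists where the other classes merge those of 2, so the widths of the classes cannot be compared. Of shared regions 23.2% lay near a gene end (95% Wilson interval 19.0% to 28.1%, counting error only). Their median percentile was 45.6 and 49.3 in the CD24low lists and 52.5 and 59.7 in the CD24high lists. Ranks agreed weakly even between replicates, and ranks from lists of such different lengths give no difference between the populations, so they are given as places within each list. Over the shared regions Spearman's rho was 0.229 between the CD24low lists, 0.202 between the CD24high lists and 0.112 between the means of the populations, over 327 regions that share their lists and peak caller.

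The shared region between Pqbp1 and Timm17b on the X chromosome ranked highest, at percentiles 99.95 and 99.88 in CD24low and 99.84 and 99.7 in CD24high. Gramd2, a type 1 cell gene, led the list genes, with 69.99 and 92.37 in CD24low and 93.32 and 97.3 in CD24high. Fgfr2, a receptor needed for lung branching, had 92.66 and 68.38 in CD24low and 71.44 and 80.81 in CD24high, and 2 CD24low-only regions stood on either side of it. Tead1 had 61.15 and 44.59 in CD24low and 95.93 and 93.15 in CD24high. Tgfbr3, a coreceptor of TGF-beta, had 89.28 and 62.53 in CD24low and 4.93 and 7.67 in CD24high. Rspo1 had 4.44 and 0.910 in CD24low and 54.34 and 82.68 in CD24high. In Irf2 and Spred2 the shared region lay at or near one end of the gene and the 2 CD24low-only regions deeper inside it.

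**Figure D4:**
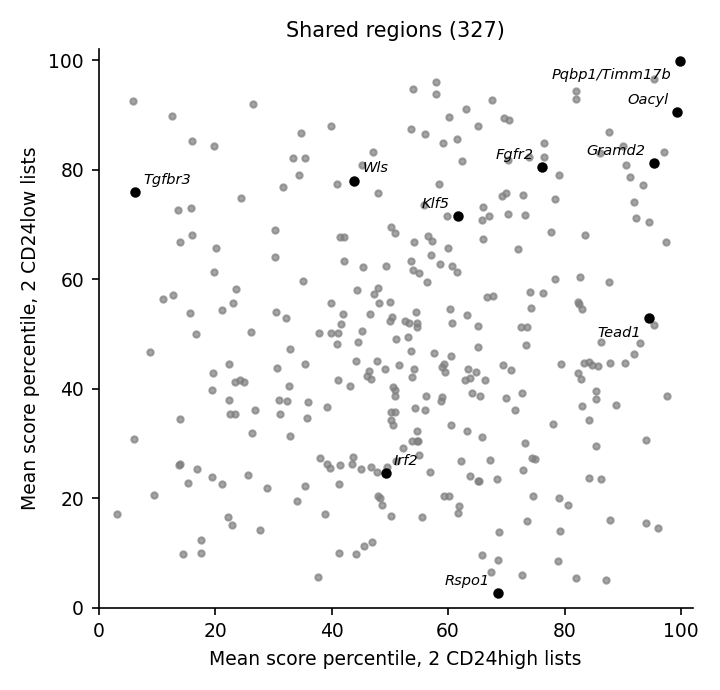
Mean score percentile of each of the 327 shared regions in the 2 CD24low lists (vertical axis) against that in the 2 CD24high lists (horizontal axis), with named genes in black. Points scatter over the whole plane (Spearman's rho 0.112), with Pqbp1/Timm17b near the top of the lists of both populations; a place off the diagonal is no measure of a difference, as the lists differ in length.

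**Figure D5:**
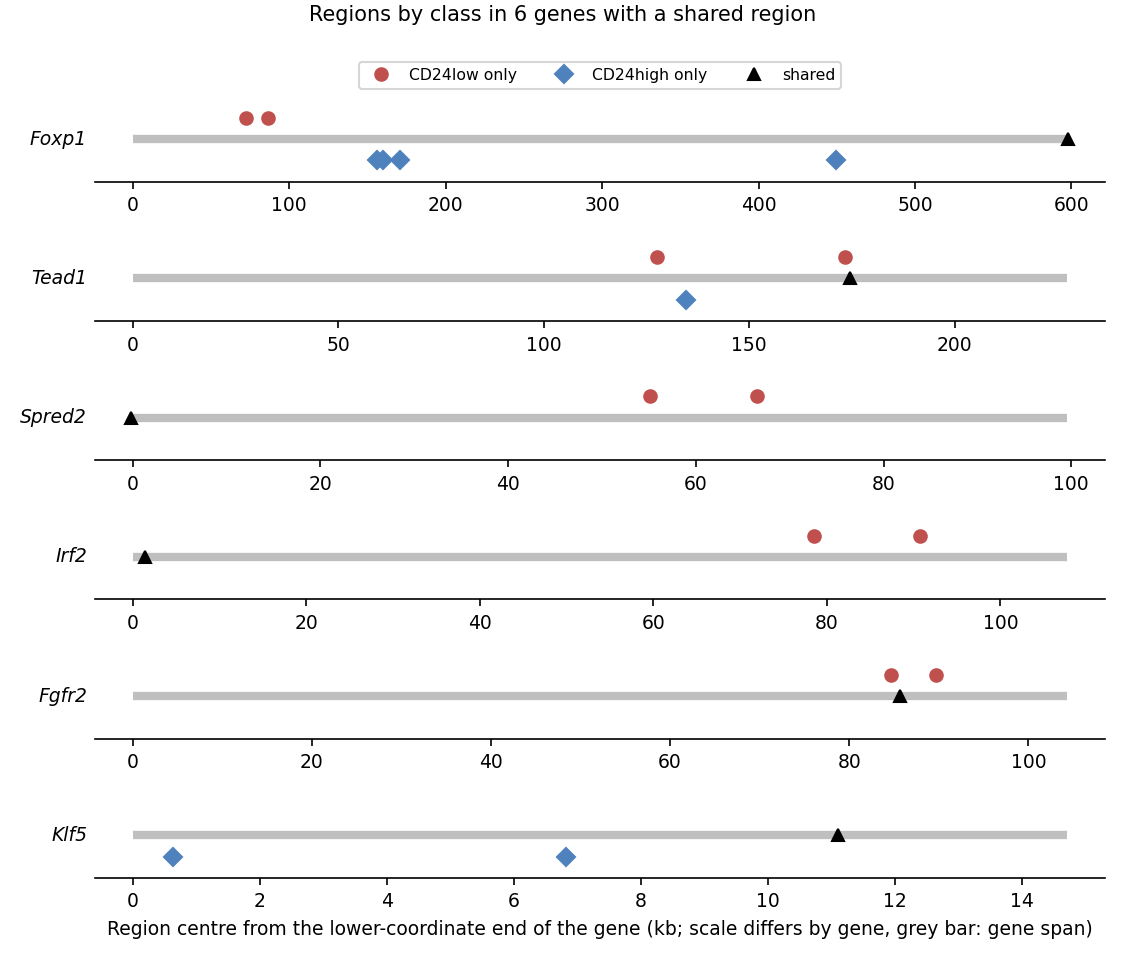
Centres of CD24low-only (circles, above), CD24high-only (diamonds, below) and shared (triangles) regions along 6 genes, as the distance in kb from the lower-coordinate end of the gene; the grey bar is the gene span and its scale differs by gene. Foxp1 shows 2, 4 and 1 regions of the 3 classes, and in Fgfr2 the shared region lies between 2 CD24low-only regions.

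Vehicle lists of the other population were not used to form the classes. Of CD24low-only regions, 981 (14.3%, Wilson interval 13.5% to 15.1%) held a peak of the CD24high vehicle list, and of CD24high-only regions, 106 (4.32%, 3.59% to 5.20%) held a peak of a CD24low vehicle list. Per list the shares were 13.7% ± 0.0436 for CD24low and 3.83% ± 0.00686 for CD24high (SD, n = 2 each, exact permutation p = 0.333). The vehicle lists differ in length, with 2558 and 2552 peaks in CD24low and 12985 in CD24high. An alternative chosen after seeing the data took the 2000 highest-scoring peaks per list and left out CD24low vehicle replicate 2. The order then turned round, at 2.65% for CD24low and 3.30% for CD24high. This setting kept 2000 of 2552 CD24low vehicle peaks and 2000 of 12985 CD24high vehicle peaks. The 981 regions touched 631 of all protein-coding genes (2.88%) and 44 of the 660 list genes, among them Scgb1a1, Cyp2f2, Foxp1, Runx1, Notch2, Tead4, Wwtr1, Stk3 and Cftr. The 106 regions touched 86 of all genes (0.393%) and 4 list genes, Aqp3, Ces1d, Pard3 and Znrf3. Counting only regions with no peak of any vehicle list, 10 club, 7 mucin and goblet and 13 Hippo genes had a CD24low-only region and 2, 0 and 5 a CD24high-only one, where 12.8% and 6.30% of all genes had one. Thus some loci listed for CD24low under G9ai were listed for CD24high under vehicle, and the other way round. Such overlap was not particular to this pair of populations. A peak of the CD24neg vehicle list (8870 peaks) lay in 598 CD24low-only regions (8.71%) and 246 CD24high-only regions (10.0%).

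Peaks of both CD24neg G9ai lists lay in 397 CD24low-only (5.78% of the class), 125 CD24high-only (5.10%) and 24 shared regions (7.34%). The 24 were present in all 3 populations under G9ai and included the lung factor gene Runx1 (chr16:92698751-92698902), the phospholipase gene Pla2g6, the matrix gene Tnc, the atypical cadherin gene Fat3, and gene ends of Mrpl38, Uba1 and Fbxo11.

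Promoter windows, from 250 bases before to 50 after a start, that the lists touched were richer in G and C in CD24high. The mean was 59.8% ± 0.246 over the windows of CD24low lists and 63.9% ± 0.152 over those of CD24high lists (SD, n = 2 each, exact permutation p = 0.333), with a median of 52.7% over all 32817 windows. CpG dinucleotides per window averaged 19.1 in CD24low and 23.9 in CD24high. Region sequence outside promoter windows was not analysed here.

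Motifs were counted by their letters on both strands of these windows, 642 with a CD24low-only region (1.96% of all), 281 with a CD24high-only region (0.856%) and 52 with a shared one (0.158%). Windows with the same coordinates were counted as 1, but other windows of a gene can overlap and repeat a site. The 52 shared windows include those of 34 protein-coding genes. CACTTNA, the core of the NKX2-1 motif, was in 12.3% of CD24low-only, 8.19% of CD24high-only and 13.5% of shared windows, and in 11.5% of all windows. It stands in the Scgb3a1 sequence at bases 174 to 168 before the start and in that of Cxcl15 at bases 110 to 104, both inside the regions, and in that of Cyp2f2 at bases 192 to 186, outside the region. GGAATG, the TEAD core, was in 10.9%, 12.5% and 26.9% of the 3 sets (14 of 52 shared windows) and in 14.7% of all windows. It stands inside the regions of Hey2, at bases 209 to 204 before the start, and of Slc34a2, at bases 92 to 87. GGGNGTGG, a KLF motif, was in 22.3%, 19.2% and 19.2% and in 17.6% of all, and TGACGTCA, the CRE, in 3.89%, 2.14% and 0% and in 1.79% of all. Part of the CTCF motif was in 3.27%, 4.63% and 0% and in 1.94% of all windows. Of the others, TGANTCA (AP-1) was in 6.54%, 5.69% and 3.85% of the sets and in 7.81% of all, TGTGGTT (RUNX) in 3.27%, 2.85% and 0% and in 5.27% of all, and ACTTCCGG (ETS) in 5.61%, 4.63% and 9.62% and in 3.89% of all. The paired site of RFX factors, which serve cilia, was in 2 CD24low-only windows, in no window of the other 2 sets and in 0.299% of all. TTGCNNAA (CEBP) was in 10.1%, 6.76% and 5.77% and in 10.8% of all, and ACAATG (SOX) in 8.72%, 7.12% and 7.69% and in 12.6% of all. TGTTTAC (FOX), AACNNGTT (GRHL), and the motifs of NRF1, YY1, p63 and NFI were each in under 5% of every set. A base could count in more than 1 motif, and these matches describe letters and not bound sites. All windows are a background not matched for GC. Median GC was 59.3%, 65.3% and 55.0% in the 3 sets and 52.7% in all windows. The part of base composition in the motif shares was not tested.

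Of 963 microRNA hairpins in the RefSeq table, 10 lay within 200 bp of a region, 8 of them of a CD24low-only region and 2 of a CD24high-only region. That split is near the shares of the classes among all merged regions, 69.5% CD24low-only and 24.8% CD24high-only. One CD24low-only region, chr11:75173419-75173870, overlapped the hairpins of both Mir212 and Mir132, whose 3p products share the seed shown above. It scored 232 and 95, percentiles 98.31 and 82.73. Mir203, whose product is known to hold back proliferation in stratified epithelia, lay 36 bp from a CD24low-only region at percentiles 32.15 and 44.59.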

How the data were processed

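Each deposited file was a list of intervals with a name and a score, per the file contents; the authors' score came with no scale in the sources used here and served to rank peaks within a list. FastQC, Bowtie2, MACS2 and the build mm10 are named in the submitters' processing notes, with no versions or settings. Names carry one library each, so peaks had been called per library, and no counts or depths come with the lists. Repeated lines (472 and 448 in CD24low, 64 and 83 in CD24high) were dropped. Merging, classes, gene links (gene span and 1000 bp either side, or either gene end alone) and exact permutation tests were computed in Python 3.11.15 with pandas 2.3.3, numpy 2.4.6 and scipy 1.17.1, and checked on simulated lists. The 95% intervals are Wilson intervals and cover counting error only.

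Groups came from the labels, and the design names separate mice for the arms. Replicate 2 of every G9ai population carries one name prefix and replicate 3 another; its meaning is not stated, so libraries of a number may come from one mouse. The RefSeq tables of GRCm38.p6 gave 21883 protein-coding genes and promoter windows for 17491 of them. Of 662 names in 27 gene lists, 660 matched. The members, the lists and the comparisons were chosen with earlier results of these data known. Named genes were, per class, up to 15 list genes and 10 others by mean score percentile, those with the most regions, the sort markers and a few lung genes, and list members with a region of the class counted. Symbols starting with Gm or Olfr or ending in Rik were left out. GC content of peaks and motif content of whole regions, both planned, were not run without a genome, and promoter windows took their place.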

Additional observations from a re-analysis of the deposited data

Results flagged for a closer look

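The arms differed in opposite directions in the populations. CD24low lists averaged 7370 distinct peaks with G9ai and 2555 with vehicle, a difference of 4815, while CD24high lists averaged 2807.5 with G9ai and 12985 with vehicle (1 list), a difference of -10177.5. Both G9ai libraries moved one way in CD24low and the other way in CD24high. The difference between these differences was not tested, as CD24high vehicle has 1 list. The lists were taken as peaks selected against the other arm, so on that reading these lengths count peaks listed in one arm and not the other, and they do not measure how much chromatin was open in an arm.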

How the results depend on the processing

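Of 47 alternative values for comparisons of lists, 44 kept their direction and 3 reversed. The width difference became -13.0 bp without CD24low replicate 2 (leaving out one library at a time gave -13.0 to 30 bp). The overlap with the vehicle list of the other population became -0.65 percentage points with 2000 peaks per list, and that with CD24neg G9ai lists -0.471 in the higher-scoring 50% of peaks (5.22% in CD24low and 5.70% in CD24high, against 5.89% and 5.47% with all peaks). With the higher-scoring 50% of peaks the classes held 2080 CD24low-only, 770 CD24high-only and 33 shared regions, touching 1250, 556 and 27 genes. A reciprocal overlap of 50% left 217 shared regions. Linked through gene ends alone the genes numbered 1251, 615 and 88. Fewer peaks entered the first of these settings, the second asks for more overlap, and the last covers less of each gene. Of 648 counts for gene lists, 540 stayed within 1.5 times, and the 108 that did not came from changed gene links, peak thresholds or vehicle overlaps, none from leaving out a library, where replicate lists that hold nearly the same regions leave little to change. With the replicate block the log2 ratio of list lengths was 1.39 and the gene-end difference -5.92 points (exact sign-flip p = 0.5, the smallest that 2 pairs allow), which changed no call. Same-numbered libraries deviated together weakly (r = 0.111 over 327 shared regions). As ranks agreed weakly even between replicates, this correlation cannot decide whether the numbers mark pairs. The comparison is therefore given both without and with the replicate block. Depth is unknown for all lists.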
